A study of Sus scrofa with 12 samples.

Results

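The genes described here are those of the cadherin switch and of epithelial–mesenchymal transition (EMT): the epithelial cadherin CDH1 and the neural cadherin CDH2, the epithelial adhesion molecule EPCAM, the intermediate filament protein VIM, the transcription factors SNAI1, SNAI2, TWIST1, ZEB1 and ZEB2, and the epithelial splicing regulator ESRP1. They are a list of named genes, with no threshold on a measured value. Of these 10 genes, 8 were found by their Ensembl pig symbol among the 19681 genes of the tables. No identifier carried the symbol TWIST1 or ZEB2, and both are named only. RNA was sequenced from a porcine endothelial cell line, AOC, and from porcine induced pluripotent stem (iPS) cells on their way towards endothelium, taken on day 2 (IEC2), day 4 (IEC4) and day 12 (IEC12). Each of the 4 groups had 3 biological replicates, A, B and C. Libraries of undifferentiated and of sorted cells were not used here.

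All IEC cells had received the GSK3 inhibitor CHIR99021 during the first 2 days. IEC4 and IEC12 cells had then received BMP4, FGF2 and VEGF for 2 days, and IEC12 cells were afterwards kept in the endothelial medium EGM-2 with VEGF. IEC12 is the mixed culture before any sorting for CD31, so its values are averages over all cells of the dish. AOC is a single cell line and carries no induction. The values are FPKM (fragments scaled to transcript length and to the fragments of the library), which puts different genes on a like scale. How well each gene was measured was not checked. Ratios, shares and ranks between genes are therefore rough, and a low value need not mean absence.

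Cadherins are calcium-dependent adhesion molecules that bind the same cadherin on the neighbouring cell and are anchored to actin by catenins. In EMT, as at gastrulation, epithelial cells give up CDH1, take on CDH2 and VIM and become motile, and the reverse passage restores CDH1. SNAI1, SNAI2, ZEB1, ZEB2 and the TWIST factors repress CDH1 and other epithelial genes, whereas ESRP1 keeps the epithelial splice forms of many transcripts. Endothelial cells are vimentin-rich and are joined by their own cadherin, CDH5.

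The number of reads behind the libraries is unknown, and their relative depth, estimated from the steps between low values, lay between 0.845 and 1.26. Between 8357 and 10467 genes per library reached 1 FPKM. The summed FPKM of 12 measured endothelial markers lay between 298 and 424 in AOC. In IEC12, the cells after 12 days of induction, it lay between 0.425 and 0.704. CDH5 was listed at 0 in all 9 IEC libraries and PECAM1, which encodes CD31, stayed at or below 0.554 FPKM there. IEC12 A, IEC12 C, IEC4 C and IEC2 A were the libraries farthest from their groups. In IEC12 A, 10.7% of 10542 genes lay over 1 log2 unit from the mean of the other IEC12 libraries, mostly below it, and in IEC12 C 5.80% did, mostly above. In IEC4 C, 4.53% of genes did, also mostly above, and in IEC2 A 4.36%, mostly below. The other 8 libraries lay between 0.626% and 3.52%. Calls of the 8 genes that were lost or gained without one of these libraries are given beside the result.

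Differences between groups are given on the log2(FPKM + 1) scale, which understates the change of low genes, with the standard error (SE) and the Benjamini-Hochberg adjusted p of limma over all genes tested. A gene was called at an adjusted p under 0.05. In 7 of the 8 genes at least 3 libraries reached 1 FPKM and a test was made. CDH1 passed this filter only through its 3 IEC4 libraries, and EPCAM did not pass it.

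**Figure D1:**
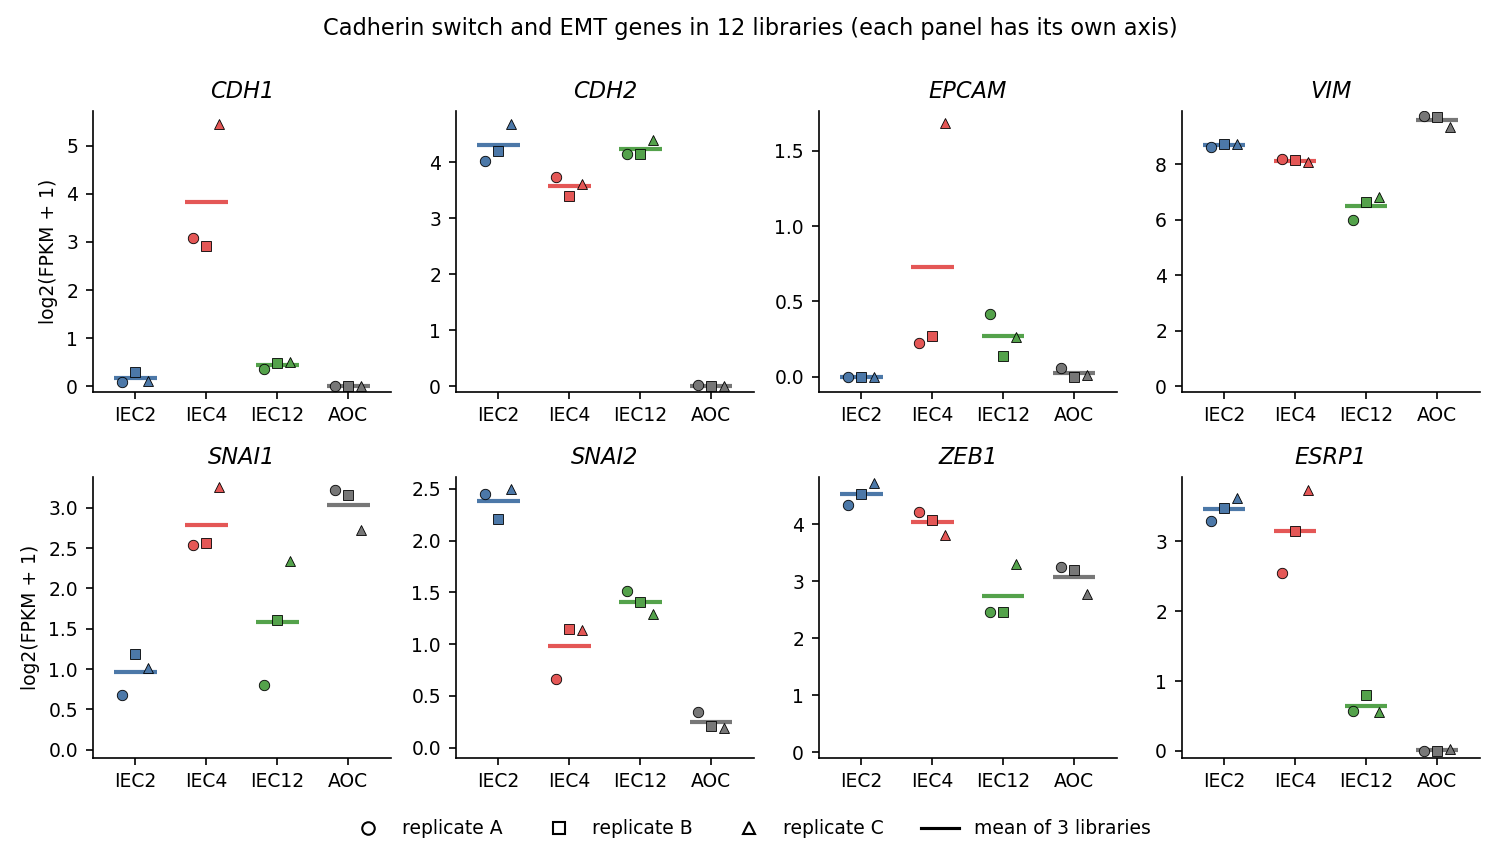
Level of each gene as log2(FPKM + 1) in the 12 libraries, with 1 point per library (circle, square and triangle for replicates A, B and C) and a line at the mean of the 3 libraries. CDH1 stood up in IEC4 alone, with replicate C at 42.8 FPKM, whereas CDH2 was lower in IEC4 than in IEC2 and IEC12 and near 0 in AOC.

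CDH1 (ENSSSCG00000025652, chromosome 6, 18075487 to 18155986, Sscrofa11.1, positions from RefSeq) was high on day 4 only. It read 0.0613, 0.229 and 0.0754 FPKM in IEC2 A, B and C, 7.51, 6.54 and 42.8 in IEC4, 0.281, 0.395 and 0.418 in IEC12, and was listed at 0 in every AOC library. No IEC4 library overlapped with any library of another group, and IEC4 C stood far above IEC4 A and B. Since CDH1 was tested only because it reached 1 FPKM in IEC4, the filter favoured differences from IEC4, and their tests are no independent support. It rose from IEC2 to IEC4 by 3.66 (SE 0.55, adjusted p = 0.000801) and fell by 3.37 from IEC4 to IEC12 (adjusted p = 0.00121). Without IEC4 C, and with the same genes tested, the rise was 2.84 (adjusted p = 2.01e-05) and the change to IEC12 was -2.55 (adjusted p = 4.17e-05). The level in IEC12 was 2.99 times that in IEC2, with no overlap of libraries, but both lay under 0.5 FPKM and the difference of 0.28 did not pass the test (adjusted p = 0.702).

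CDH2 (ENSSSCG00000003722, chromosome 6, 112396713 to 112629073) showed the opposite course at a smaller scale. It read 15.3, 17.3 and 24.8 FPKM in IEC2, 12.4, 9.51 and 11.3 in IEC4 and 16.8, 16.8 and 20.2 in IEC12. In AOC it was 0.0165 in replicate A and listed at 0 in B and C. Every IEC4 library was thus below every IEC2 and IEC12 library, while IEC2 and IEC12 overlapped. CDH2 fell by 0.72 from IEC2 to IEC4 (SE 0.19, adjusted p = 0.0161) and rose by 0.65 from IEC4 to IEC12 (adjusted p = 0.0216). Both calls are narrow. The first was lost without IEC2 C (adjusted p = 0.0516) or IEC4 B (adjusted p = 0.0663), and the second without IEC4 B (adjusted p = 0.0815) or IEC12 C (adjusted p = 0.0581) and with libraries scaled to equal totals (adjusted p = 0.123). Between IEC2 and IEC12 the difference was -0.07 with a 95% interval from -0.50 to 0.36, and it turned to 0.12 without IEC2 C. CDH2 was thus not shown to differ between day 2 and day 12.

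The balance of both cadherins, as log2 of (CDH2 + 1) over (CDH1 + 1) in the same library, was 4.14 ± 0.38 in IEC2 (SD, n = 3). It dropped to -0.23 ± 1.39 in IEC4 and stood at 3.79 ± 0.12 in IEC12. The 3 IEC4 libraries did not share a sign. Replicates A and B, at 0.65 and 0.48, still held more CDH2 than CDH1, and replicate C, at -1.83, held more CDH1. CDH2 on day 4 was still 11.1 ± 1.45 FPKM (SD, n = 3) in the libraries in which CDH1 was high. In AOC neither was present above 0.0165 FPKM.

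CDH1 and CDH2 were set against all 19 classical and related cadherins with a symbol, whose FPKM summed to between 44.5 and 95.3 in the IEC libraries and between 154 and 209 in AOC. CDH11, the mesenchymal OB-cadherin, was the leading one in IEC2 with 47.5% ± 0.322 (SD, n = 3) of the sum, followed by CDH2 with 34.9% ± 2.51. In IEC4 A and B, CDH11 still led with 27.2% and 30.5%, and CDH6, the K-cadherin of kidney and other epithelia, came next with 25.3% and 22.6%. In IEC4 C, CDH1 led with 44.9%, against 11.6% as the lowest share among the IEC4 libraries. CDH2 led in all IEC12 libraries with 36.0% ± 1.48, ahead of CDH11 with 26.9% ± 0.924. In AOC, 65.9% ± 1.60 of the sum was CDH5 and 25.2% ± 2.33 was CDH13, the membrane-anchored T-cadherin.

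**Figure D2:**
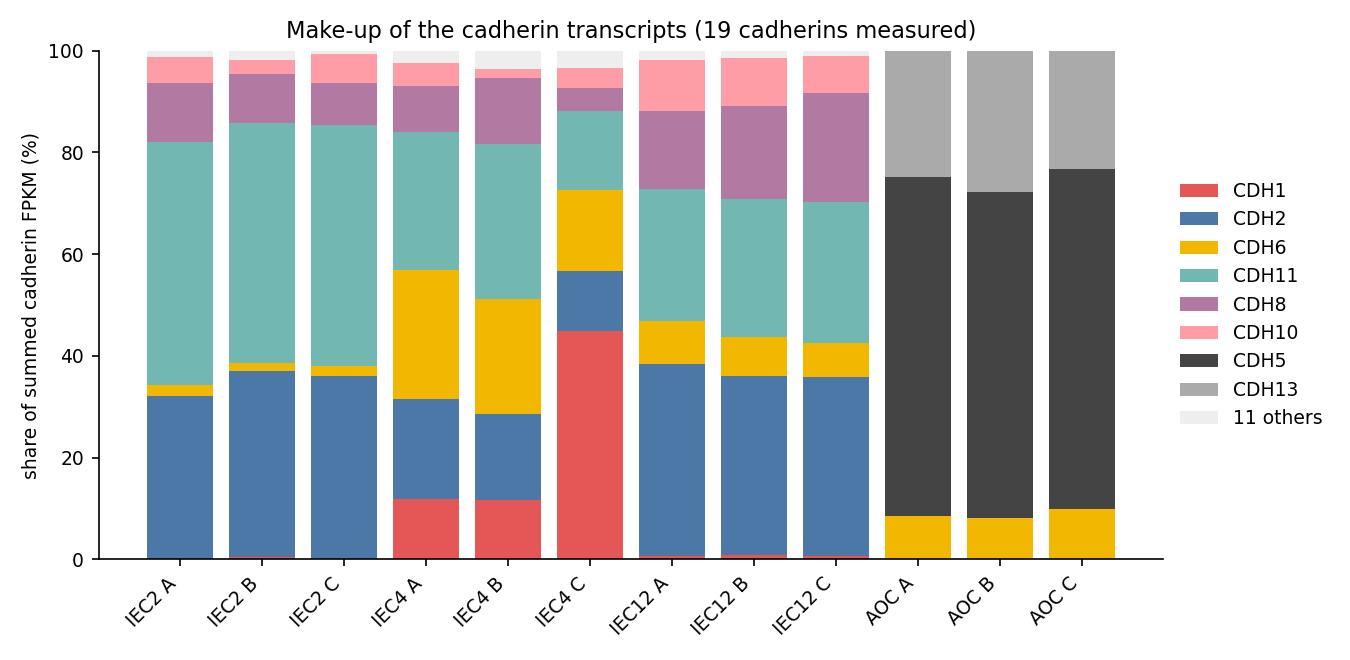
Share of each cadherin in the summed FPKM of 19 cadherins, with 1 bar per library. CDH1 took 44.9% of the sum in IEC4 C, CDH2 led in the 3 IEC12 libraries, and AOC consisted mainly of CDH5 and CDH13.

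Of the other cadherins 17 were found and 5 tested among the IEC groups. From IEC2 to IEC4 2 rose and 1 fell, beside 24.8% and 12.5% of all genes, and towards IEC12 0 rose and 2 fell, beside 17.3% and 26.9%. From IEC2 to IEC4, CDH6 rose by 2.96 (adjusted p = 4.30e-06), CDH3, the placental cadherin, rose by 1.46 (adjusted p = 0.00109) and CDH11 fell by 0.62 (adjusted p = 0.0247), the latter a call lost without IEC4 C (adjusted p = 0.0713) or IEC4 B (adjusted p = 0.0538). In the next step CDH6 fell by 1.70 and CDH3 changed by -1.41 (adjusted p = 0.000108 and 0.00129). CDH6 read 15.9, 12.7 and 15.2 FPKM in IEC4 A, B and C, without the excess of CDH1 in replicate C, whereas CDH3 read 1.28, 1.29 and 3.15. CDH3, like CDH1, was tested only because it reached 1 FPKM in IEC4, so the filter favoured its changes and their tests are no independent support.

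EPCAM (ENSSSCG00000008429, chromosome 3, 93169800 to 93185221) read low in every group. It was listed at 0 in all 3 IEC2 libraries and read 0.166, 0.208 and 2.21 FPKM in IEC4, 0.333, 0.0990 and 0.202 in IEC12, and 0.0403, 0 and 0.00652 in AOC. IEC4 C was the only library above 1 FPKM, and the other IEC4 libraries lay within the range of IEC12. EPCAM was compared with exact permutation tests (two-sided), in which 3 libraries against 3 allow no p below 0.1. IEC4 against IEC2 gave that smallest p, exact p = 0.1, and IEC12 against IEC4 gave an exact p of 0.6. IEC4 A and B, with CDH1 at 7.51 and 6.54 FPKM, thus held EPCAM at no more than 0.208 FPKM.

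VIM (ENSSSCG00000011033, chromosome 10, 43516441 to 43526172) was the most abundant gene of the group in every library, and its level stepped down during induction. It read 393, 418 and 425 FPKM in IEC2, 290, 281 and 267 in IEC4 and 62.9, 97.6 and 113 in IEC12, against 855, 839 and 647 in AOC. No 2 groups overlapped. The mean in AOC was 1.89 times that in IEC2, that in IEC2 was 1.47 times that in IEC4, and that in IEC4 was 3.07 times that in IEC12. VIM fell by 1.65 from IEC4 to IEC12 (SE 0.19, adjusted p = 0.000198), and by 1.40 without IEC12 A (adjusted p = 5.92e-05). From IEC2 to IEC4 it fell by 0.56 (adjusted p = 0.0419), a call lost when any single replicate of either group was left out (adjusted p up to 0.101), without the filter (adjusted p = 0.0790), with equal totals (adjusted p = 0.0634) and with a variance not tied to expression (adjusted p = 0.0601).

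The course of VIM did not follow that of CDH2. Between day 4 and day 12 CDH2 rose and VIM fell, and AOC combined the highest VIM, 780 ± 116 FPKM (SD, n = 3), with CDH2 listed at 0 in 2 of 3 libraries. AOC exceeded IEC12 in VIM by 3.11 (SE 0.19, adjusted p = 5.59e-08) and lay below it in CDH2 by -4.23 (SE 0.18, adjusted p = 3.12e-09).

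**Figure D3:**
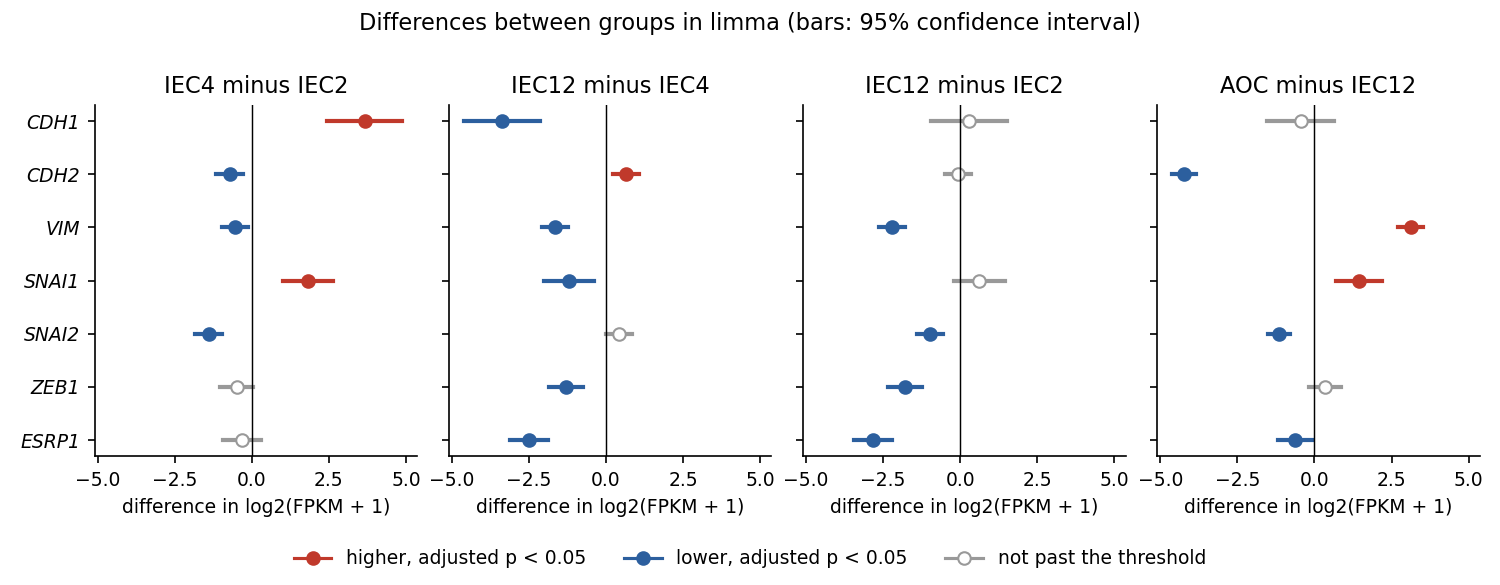
Difference in log2(FPKM + 1) between groups for the 7 genes tested, with points for the limma estimate and bars for the 95% confidence interval. Filled points passed an adjusted p of 0.05. CDH1 and SNAI1 were higher and CDH2, VIM and SNAI2 lower in IEC4 than in IEC2, and in IEC12 against IEC4 CDH2 alone was called higher.

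SNAI1 and SNAI2, closely related zinc-finger repressors that bind the same E-box sequence, ran in opposite directions. SNAI1 (ENSSSCG00000032613, chromosome 17, 51546446 to 51552498) read 0.605, 1.28 and 1.03 FPKM in IEC2, 4.82, 4.93 and 8.55 in IEC4, 0.747, 2.05 and 4.06 in IEC12, and 8.35, 7.94 and 5.6 in AOC. IEC4 lay above IEC2 and IEC12 without overlap and overlapped with AOC. SNAI1, a repressor of CDH1, rose together with CDH1 from IEC2 to IEC4, by 1.82 (SE 0.37, adjusted p = 0.00391). It fell by 1.20 from IEC4 to IEC12 (adjusted p = 0.0243), a call lost without IEC4 C (adjusted p = 0.0838), IEC12 A (adjusted p = 0.0634) or IEC12 B (adjusted p = 0.0608), and without the filter (adjusted p = 0.0583).

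The IEC12 libraries differed most in SNAI1, where replicate C was highest, B intermediate and A lowest. The difference between IEC12 and IEC2 was 0.62 and did not pass the test (adjusted p = 0.198). Without IEC12 A it was 1.01 and passed (adjusted p = 0.0262).

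SNAI2 (ENSSSCG00000039568, chromosome 4, 79264880 to 79268475), which encodes Slug, read 4.47, 3.63 and 4.67 FPKM in IEC2, 0.584, 1.22 and 1.21 in IEC4, 1.86, 1.64 and 1.45 in IEC12, and 0.268, 0.158 and 0.143 in AOC. All 4 groups were separate. SNAI2 fell by 1.40 from IEC2 to IEC4 (SE 0.19, adjusted p = 0.000483). IEC12 lay above IEC4 by 0.42, with a 95% interval from -0.01 to 0.85 and an adjusted p of 0.102. The log2 ratio of (SNAI2 + 1) over (SNAI1 + 1) was 1.42 ± 0.38 in IEC2 (SD, n = 3) and -1.80 ± 0.35 in IEC4. It was -0.18 ± 0.88 on day 12, and -2.79 ± 0.22 in AOC.

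ZEB1 (ENSSSCG00000011025, chromosome 10, 42013114 to 42216139), a repressor of CDH1 with zinc fingers at both ends, read 19.2, 22.3 and 25.4 FPKM in IEC2, 17.7, 15.9 and 13.0 in IEC4, 4.48, 4.49 and 8.87 in IEC12, and 8.54, 8.24 and 5.88 in AOC. It was more abundant than SNAI1 and SNAI2 in every IEC library. IEC12 overlapped with AOC, and no other groups overlapped. ZEB1 fell from IEC4 to IEC12 by 1.30 (SE 0.24, adjusted p = 0.00244), and by 1.16 without IEC12 A (adjusted p = 0.00657). The difference of -0.49 between IEC4 and IEC2 had an adjusted p of 0.138. It passed in a fit of these 2 groups alone (adjusted p = 0.0429) and with median-of-ratios scaling (adjusted p = 0.0203). ZEB1 at 15.5 ± 2.34 FPKM (SD, n = 3) was therefore present in the same IEC4 libraries as CDH1.

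ESRP1 (ENSSSCG00000006099, chromosome 4, 41993944 to 42061706), which marks epithelial splicing, was high in IEC2, in which CDH1 was low. It read 8.83, 10.1 and 11.3 FPKM in IEC2, 4.83, 7.91 and 12.4 in IEC4 and 0.489, 0.735 and 0.479 in IEC12. In AOC it was 0.0193 in replicate C and listed at 0 in A and B. IEC2 and IEC4 overlapped and differed by -0.32 with a 95% interval from -0.93 to 0.30 (adjusted p = 0.390). ESRP1 fell from IEC4 to IEC12 by 2.50 (SE 0.28, adjusted p = 0.000157), and the mean in IEC4 was 14.7 times that in IEC12. In IEC2, ESRP1 at 10.1 ± 1.24 FPKM (SD, n = 3) thus stood beside CDH1 at 0.122 ± 0.0931. AOC lay below IEC12 by -0.64 (adjusted p = 0.0434), a call that did not hold when any single replicate of AOC or IEC12 was left out (adjusted p from 0.0599 to 0.126), nor without the filter (adjusted p = 0.0767).

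Counted over the 7 genes tested, 5 were called between IEC4 and IEC2. CDH1 and SNAI1 were higher, where 24.8% of all 10542 genes tested were called higher, and CDH2, VIM and SNAI2 were lower, where 12.5% of all genes were. Without IEC4 C, with the same genes tested, 4 remained called (CDH1, CDH2, SNAI1 and SNAI2), and 3 were called without IEC4 B or without IEC2 C. Between IEC12 and IEC4, 6 were called, CDH2 higher against 17.3% of all genes, and CDH1, VIM, SNAI1, ZEB1 and ESRP1 lower against 26.9%. Between IEC12 and IEC2, 4 were called, VIM, SNAI2, ZEB1 and ESRP1, all lower, against 19.3% of all genes. Their differences were -2.21, -0.98, -1.80 and -2.82 (adjusted p from 2.29e-05 to 0.00284). In either direction, 37.3%, 44.2% and 43.6% of all genes were called in these comparisons. A call by itself thus does not set these genes apart. CDH1 was tested only through its IEC4 libraries, so its calls in the comparisons with IEC4 are no support.

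Against AOC, which shares its libraries over the 3 comparisons, 6 of 7 genes were called for IEC2, 6 for IEC4 and 5 for IEC12, beside 63.8%, 69.1% and 58.5% of all 11053 genes tested. Of the genes called, 2, 1 and 2 were higher in AOC (26.7%, 22.1% and 22.4% of all genes). Lower were 4, 5 and 3 (37.1%, 47.0% and 36.2%). CDH1 was called for IEC4 alone, the group through which it was tested, so that call is no support. VIM was higher in AOC in each, by 0.91, 1.47 and 3.11. CDH2 was lower in each, by -4.30, -3.58 and -4.23. SNAI1 was higher than in IEC2 by 2.07 (adjusted p = 0.000225) and than in IEC12 by 1.45 (adjusted p = 0.00325), while IEC4 differed by 0.25 (adjusted p = 0.532). ZEB1 was lower than in IEC2 by -1.45 and than in IEC4 by -0.96, and differed from IEC12 by 0.34, with a 95% interval from -0.17 to 0.86 (adjusted p = 0.233), or by 0.63 without IEC12 C (adjusted p = 0.0173). SNAI2, ESRP1 and both cadherins were at their lowest mean in AOC, and VIM and SNAI1 at their highest.

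The study selected genes between iPS cells and AOC at stricter limits (p and adjusted p under 0.001, absolute log2 difference above 3). Here they were applied to other comparisons and on log2(FPKM + 1), which understates the change of low genes. Between IEC4 and IEC2, 1.18% of all genes passed them, and CDH1 alone of these genes did. CDH1 was tested only through its IEC4 libraries, and its difference of 2.84 without IEC4 C is under that limit. Neither IEC12 comparison within the induction had any member past them on this scale (0.939% and 1.22% of all genes). ESRP1, whose mean in IEC12 was 0.0678 times that in IEC4 and 0.0562 times that in IEC2, stayed under 3 there. Against AOC, CDH2 and ESRP1 passed for IEC2, CDH1, CDH2 and ESRP1 for IEC4, and CDH2 and VIM for IEC12, beside 5.47%, 5.17% and 4.41% of all genes.

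The 3 IEC4 libraries were then taken one by one. CDH1 in replicate C was 6.09 times the mean of A and B, and EPCAM was 11.8 times. ESRP1 was 1.94 times and SNAI1 1.76 times that mean, whereas CDH2 (1.03 times), VIM (0.935 times) and ZEB1 (0.776 times) were not raised. On the log2(FPKM + 1) scale CDH1 in C lay 2.45 above the mean of A and B, and 0.294% of all genes lay at least as far above. For ESRP1 the difference was 0.89 (4.71% of genes) and for SNAI1 0.70 (7.71% of genes). Replicates A and B lay close to each other in CDH1 and SNAI1, and differed in ESRP1 and, at 0.584 and 1.22 FPKM, in SNAI2.

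The excess in replicate C was shared by lists of genes around CDH1. Of 19 tested genes for epithelial surface proteins, keratins and desmosomes, 18 were highest in C, beside 38.6% of all genes. In FPKM, 11 of the 19 were in C over 2 times the mean of A and B, beside 6.47% of all genes. CLDN4, a claudin of tight junctions, read 7.55, 7.34 and 61.1 FPKM in IEC4 A, B and C. Of 17 tested genes of the mesenchymal matrix and cytoskeleton, 13 were also highest in C. In FPKM, 9 of the 17 were in C over 2 times the mean of A and B. The fibronectin gene FN1, named after its values were seen, read 13.1, 10.4 and 116 FPKM. Of 6 other EMT transcription factors tested, 1 was highest in C.

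**Figure D4:**
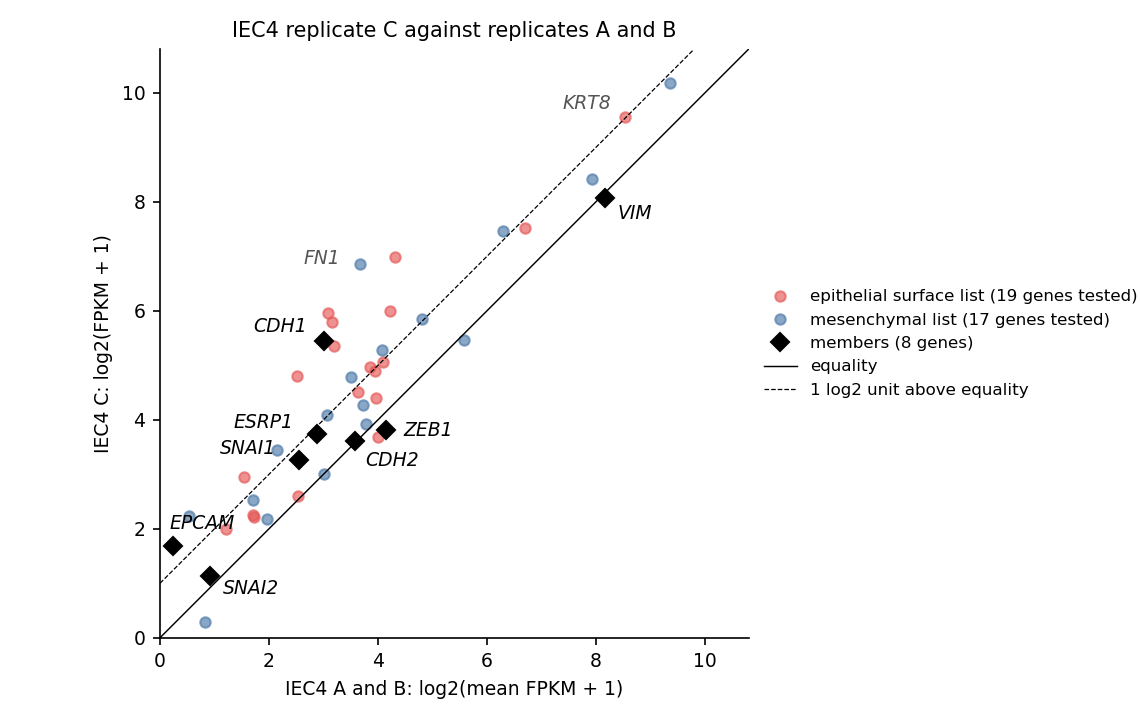
Level of the members (black diamonds), of 19 epithelial and of 17 mesenchymal genes in IEC4 C against the mean of IEC4 A and B, both as log2(FPKM + 1), with the line of equality and a dashed line 1 log2 unit above it. CDH1 lay 2.45 above the level of A and B by the log2 difference, with FN1 farther off the line, while CDH2, VIM and ZEB1 lay near equality.

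The epithelial list followed CDH1 in all IEC groups. Of 31 genes listed 24 were found and 19 tested, and 17 rose and 0 fell from IEC2 to IEC4, beside 24.8% and 12.5% of all genes, with a median difference of 2.37 beside 0.20 over all genes. Among the largest rises were those of the simple-epithelium keratin KRT8 (4.83, adjusted p = 5.53e-05) and the keratin KRT7 (4.37, adjusted p = 5.67e-05). KRT8 read 13.6, 20.3 and 12.9 FPKM in IEC2, 300, 435 and 748 in IEC4 and 3.64, 11.1 and 14.9 in IEC12. Afterwards 16 of the 19 fell until IEC12 and 1, the desmosomal PERP, rose (0.85, adjusted p = 0.0139, but 0.0533 without IEC4 A, 0.0551 without IEC4 B and 0.0520 without IEC12 B), beside 26.9% and 17.3% of all genes, with a median of -2.13 beside -0.15. Without IEC4 C, with the same genes tested, 17 rose and then 15 fell. Like CDH1, many of these genes passed the filter only through IEC4, so their counts describe the list and support nothing about CDH1. When the filter was applied again after a library of IEC4 was left out, 9 of the list were tested and 7 or 8 were called higher in IEC4 than in IEC2, and 5 to 7 between IEC12 and IEC4.

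**Figure D5:**
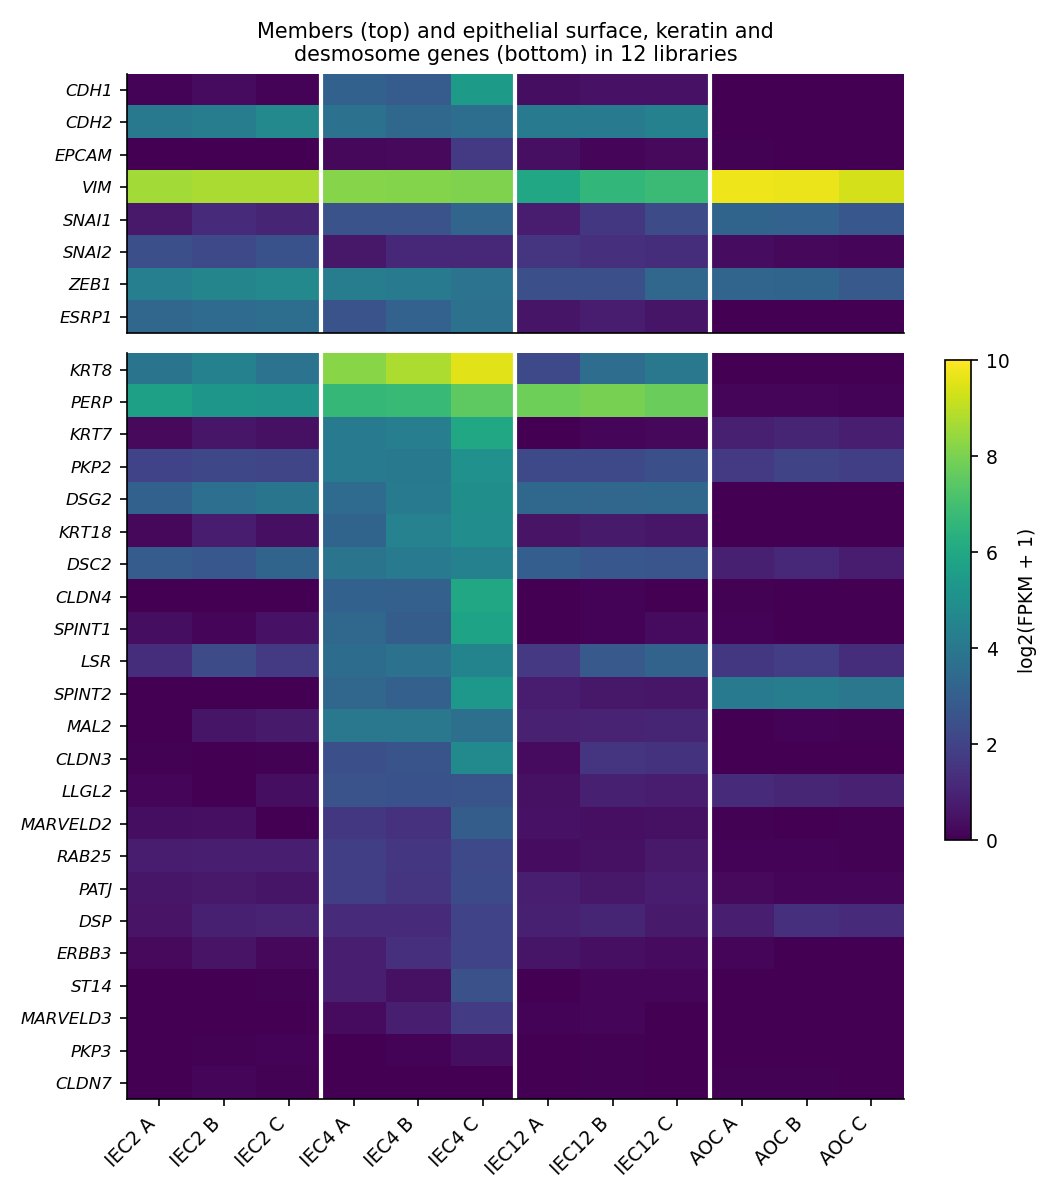
Level as log2(FPKM + 1) of the 8 members (top) and of epithelial surface, keratin and desmosome genes (bottom), with 1 column per library and white lines between groups. Most of the epithelial genes were brightest in the 3 IEC4 columns and in replicate C among them, as was CDH1. PERP remained high in IEC12.

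The epithelial regulators moved in both directions. Of 7 tested transcription factors and splicing regulators of epithelia, 5 rose from IEC2 to IEC4, among them RBM47, an RNA-binding protein (2.01, adjusted p = 0.000139), ELF3 (1.91, adjusted p = 0.00808, a gene that passed the filter through IEC4) and GRHL3 (1.44, adjusted p = 0.00697), and EHF (-2.24) and TFAP2A (-0.80) fell, beside 24.8% and 12.5% of all genes. The call of TFAP2A was lost without IEC4 A (adjusted p = 0.0866) or IEC4 B (adjusted p = 0.0682). In the next step ELF3 fell by 2.75 (adjusted p = 0.00114) and KLF4 changed by -2.24 (adjusted p = 0.000302), while GRHL3, KLF5 and RBM47 stood higher in IEC12 than in IEC2 (1.93, 1.80 and 1.48). EHF, like ESRP1, was already high in IEC2, at 9.41, 8.43 and 6.99 FPKM.

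The mesenchymal list did not mirror the epithelial one. Of 17 tested genes, 8 rose and 3 fell from IEC2 to IEC4, beside 24.8% and 12.5% of all genes, and without IEC4 C, with the same genes tested, 8 rose and 5 fell. Without IEC2 A, 6 rose and 3 fell. The actin-binding CALD1 (2.72, adjusted p = 0.000152), the collagen COL1A1 (2.12, adjusted p = 0.0016, tested only through its IEC4 libraries) and the fibronectin receptor subunit ITGA5 (2.03, adjusted p = 0.00126) rose with CDH1, and the growth factor receptor PDGFRA (-1.74), the collagen COL3A1 (adjusted p = 0.00478) and CD44 (-0.75) fell. Between IEC4 and IEC12, 9 fell and COL3A1 rose (0.62, adjusted p = 0.0354), beside 26.9% and 17.3% of all genes. That rise was lost without IEC4 A, IEC4 C, IEC12 A or IEC12 B (adjusted p from 0.0791 to 0.110), without the filter (adjusted p = 0.0663) and with equal totals (adjusted p = 0.148). With median-of-ratios scaling 4 rose and 9 fell, and with equal totals 0 rose and 9 fell. LOXL2, a collagen cross-linking enzyme (-3.92), the matrix protein SPARC (-3.21) and ITGA5 (-3.01) fell most, in the same step as VIM, beside a median of -0.15 over all genes.

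Of the other EMT transcription factors, 17 of 19 were found and 6 tested. By limma none was called between IEC4 and IEC2, beside 24.8% of all genes called higher and 12.5% lower. Of the 6, 2 had an unadjusted p under 0.05, and 1 was called lower under either other scaling. Towards IEC12, 5 rose and 1 fell, beside 17.3% and 26.9% of all genes. TCF4 (1.35, adjusted p = 0.000249), an E-protein that binds E-boxes, LEF1 (1.32, adjusted p = 0.00112), the nuclear partner of β-catenin, and PRRX2 (1.01, adjusted p = 0.0196, a gene that passed the filter through IEC12) rose most, and TCF3 fell by 1.02 (adjusted p = 0.0122). LEF1 reached 23.9, 32.3 and 30.2 FPKM in IEC12 and was at most 0.00653 in AOC.

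The cytoplasmic partners of cadherins include the catenins that tie them to actin. Of 9 tested cytoplasmic partners, 4 rose and 1 fell from IEC2 to IEC4, beside 24.8% and 12.5% of all genes. Afterwards 1 rose and 5 fell, beside 17.3% and 26.9%, and without IEC4 C 0 rose and 2 fell. JUP, the plakoglobin of adherens junctions and desmosomes, rose by 1.45 (adjusted p = 0.00572) and then fell by 3.63 (adjusted p = 4.54e-05), from 18.5, 14.1 and 21.5 FPKM in IEC4 to 0.194, 0.367 and 1.14 in IEC12. CTNND2, a neural δ-catenin, fell from 3.79, 5.07 and 4.92 FPKM in IEC2 to 1.03, 1.35 and 0.61 in IEC4 (adjusted p = 0.000409). It then rose by 0.67 (adjusted p = 0.0223), a call lost without IEC4 C (adjusted p = 0.0678).

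Some markers of another epithelium were also highest on day 4, and others were not. The summed FPKM of 13 measured markers of amnion or trophoblast epithelium was 127, 98.9 and 278 in IEC4 A, B and C, between 9.85 and 10.7 in IEC2, between 15.5 and 33.0 in IEC12 and between 3.41 and 4.12 in AOC, with GABRP and KRT7 as the largest contributors in IEC4. Of 8 tested, 6 rose and 2, ISL1 and TFAP2A, fell from IEC2 to IEC4, beside 24.8% and 12.5% of all genes. Among the 6, KRT7, HAND1 and VTCN1 were tested only through their IEC4 libraries. ISL1 read 3.27, 4.95 and 3.57 FPKM in IEC2 and 0.598, 0.480 and 0.698 in IEC4. Towards IEC12 4 fell and 2, GATA3 (2.13) and ISL1 (1.91), rose, beside 26.9% and 17.3%. The GABA receptor subunit GABRP read 93.9, 64.6 and 184 FPKM in IEC4, and CDX2 was listed at 0 in all IEC4 libraries. KRT7 belongs to the amnion list and to the epithelial one. HAND1, which belongs to this list and to that of primitive streak and mesoderm, read 6.59, 6.38 and 9.98 FPKM in IEC4 and was listed at 0 in IEC2. Of the other mesoderm markers, MESP2 rose (1.05, adjusted p = 0.00239), PDGFRA fell, and MIXL1 and EOMES were listed at 0 in both groups. The pluripotency marker LIN28A, also tested only through IEC4, read 3.94, 3.01 and 5.86 FPKM in IEC4 A, B and C, was listed at 0 in IEC2 and was at most 0.647 in IEC12. Of 10 pluripotency markers listed, 2 were found. The part of such cells in the level of CDH1 was not tested, and in cultures measured as a whole, fewer cells of a type and less RNA per cell cannot be told apart.

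By Pearson's r of log2(FPKM + 1) over the 12 libraries, among 9158 tested genes with a symbol, the genes most like CDH1 were PDPN (r = 0.997), F2RL1 (0.997), CCL1 (0.996), CLDN4 (0.994) and SLC7A4 (0.993). Without IEC4 C these were between 0.982 and 0.995. Among those most like CDH2 were RWDD3, MAP3K21, BCL11A and CPNE8 (r from 0.988 to 0.995), and those most like ESRP1 were TM9SF4, BACH1, VEGFA, MORC2 and KIAA1217 (0.979 to 0.987). For EPCAM they were SLC26A2 (0.940), LAMA3 (0.930), ANKRD22 (0.926), SLC19A3 (0.911) and HSD11B1 (0.887), and without IEC4 C they fell to between 0.324 and 0.828, so that for LAMA3, SLC19A3 and HSD11B1 the likeness rested mainly on that library. With 4 groups of 3 libraries, such values describe the pattern of group levels and carry no p.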

How the data were processed

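Poly(A) RNA was amplified as cDNA by the authors (Smart-Seq2 with a SMARTer kit) and sequenced, and FPKM for each gene of a library were deposited in a table of its own. The submitters' processing notes name TopHat2 2.0.12, Bowtie2 2.2.3, Cufflinks 2.2.1 and the pig build susScr11. The deposited FPKM hold no counts, so counting error is unknown, and a listed 0 can be a failed estimate. Symbols were matched for 13998 of 19681 identifiers. limma 3.58.1 (R 4.3.3; lmFit, eBayes with trend) was run on log2(FPKM + 1) for genes with at least 1 FPKM in 3 libraries, in the 9 IEC libraries or in all 12, with Benjamini-Hochberg adjustment. The test was tested on simulated data of IEC4 against IEC2 (10542 genes), where it recovered 36 of 67 genes changed by 1, 59 of 67 changed by 2 and 66 of 66 changed by 4 log2 units, with 10 others called. Descriptions used Python 3.11.15. The genes and gene lists were chosen with earlier results of these data known. Named from a list were up to 3 called genes with the largest differences per direction and comparison, and the 5 genes most alike by r, except genes that are not reported here. Alternatives were another pseudocount, no filter, a fit of the groups compared, a replicate block, other scalings, an untied variance, stricter limits and replicates left out.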

Additional observations from a re-analysis of the deposited data

How the results depend on the processing

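Of 595 log2 differences of single genes under alternatives, 556 kept their direction and side of the threshold, 32 lost the call, 6 gained it and 1 turned, that of CDH2 between IEC12 and IEC2 without IEC2 C (0.12, with -0.20 to 0.12 over single replicates left out). The number of genes called without 1 replicate ranged from 2 to 4 for IEC4 against IEC2 (5 with all), 4 to 6 for IEC12 against IEC4 (6), 4 to 5 for IEC12 against IEC2 (4), 6 for AOC against IEC2 (6), 5 to 6 for AOC against IEC4 (6) and 4 to 5 for AOC against IEC12 (5). CDH1 left the tests when an IEC4 library was removed and the filter applied again. Leaving out an IEC4 replicate with the genes tested held fixed, and the calls of lists and their genes under alternatives, were added after seeing the data. Without IEC4 B it gave 3 called genes for IEC4 against IEC2. The stricter limits left 1, 0, 0, 2, 3 and 2 called genes in these comparisons. With a pseudocount of 0.1, the log2 balance of CDH2 over CDH1 was 6.48 in IEC2, 5.28 in IEC12 and 0.0736 in AOC. The pseudocount of 0.1 also brought CDH1 past the threshold between AOC and IEC12 (adjusted p = 0.00819), and median-of-ratios scaling or leaving out IEC12 C did so for ZEB1 (adjusted p = 0.0247 and 0.0173). Median-of-ratios scaling ended the call of ZEB1 between AOC and IEC4 (adjusted p = 0.0559). No cause was tested.

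Scaling moved the median difference of all genes from 0.20 to -0.03 between IEC4 and IEC2 and from -0.15 to 0.06 between IEC12 and IEC4 with median-of-ratios factors, and the latter to -0.32 with equal totals. Calls that were higher then made up 47.9% instead of 66.5%, and 53.0% or 25.6% instead of 39.2%. Equal totals made them 36.6% instead of 55.7% between IEC12 and IEC2. Against AOC, 41.9%, 32.0% and 38.2% of calls were higher for IEC2, IEC4 and IEC12, and 50.9%, 50.7% and 51.1% with median-of-ratios factors. The called genes named here kept their directions under both scalings.

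The replicate letters were not taken to pair libraries, since in none of the 6 comparisons did all 3 letters correlate above 0.1 in their deviations (from -0.514 to 0.247 in all, and above 0 for each letter in IEC12 against IEC2 and AOC against IEC4). With the replicate block, 5, 6, 4, 6, 6 and 5 genes were called in the same order of comparisons, as without it. Read depth, unknown here, limits what can be said below 1 FPKM.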

Other observations

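Genes that act with the factors above were also counted. Of 13 tested corepressors that SNAI or ZEB proteins recruit, 1 rose and 3 fell from IEC2 to IEC4, and 3 rose and 2 fell from IEC4 to IEC12, beside 24.8% and 12.5%, then 17.3% and 26.9% of all genes, so that the counts do not set the list apart. HDAC1, a histone deacetylase, rose by 1.08 and then by 0.58 (adjusted p = 0.00109 and 0.0215), the second a call lost with equal totals (adjusted p = 0.155). EZH2, the methyltransferase of the Polycomb complex PRC2, fell by 1.42 and rose by 1.48 (adjusted p = 0.000973 and 0.000783), and its partner EED moved the same way (-0.90 and 0.70). EZH2 read 3.34, 6.08 and 4.76 FPKM in IEC4, below all IEC2 and IEC12 libraries, a course like that of CDH2. Of 9 tested regulators of SNAIL protein stability, 1 rose and 1 fell, and then 1 rose and 2 fell, beside the same shares of all genes. PAK1, a kinase that phosphorylates SNAIL, rose by 0.64 from IEC2 to IEC4 (adjusted p = 0.0132, and 0.0824 with median-of-ratios scaling) and the casein kinase CSNK1E fell by 1.17.

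Of 9 tested splicing regulators linked to the mesenchymal state, MBNL1 (-0.72, adjusted p = 0.0272) and RBFOX2 (-0.51, adjusted p = 0.0321) fell from IEC2 to IEC4 and 0 rose, beside 12.5% and 24.8% of all genes. Both calls were lost without IEC4 B (adjusted p = 0.0646 and 0.107). In the step in which ESRP1 fell, SRSF1 (2.12), MBNL1 (1.39) and QKI (0.91) rose and PTBP1 (-1.64) and MBNL2 (-1.45) fell, beside 17.3% and 26.9%. Of 5 tested intermediate filament genes other than VIM, the neurofilament NEFL rose in both steps (adjusted p = 8.8e-05 and 0.0109), from at most 0.191 FPKM in IEC2 to at most 15.9 in IEC12, and the muscle filament DES, tested only because it reached 1 FPKM in IEC4, read 1.53, 1.32 and 1.55 FPKM there, 0 in IEC2 and at most 0.147 in IEC12. LMNA, which encodes the nuclear lamins A and C, fell by 1.82 from IEC4 to IEC12 (adjusted p = 0.0355, and 0.0872 without IEC4 C) and read 4.27 FPKM in IEC12 A against 22.9 and 37.6 in B and C.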
